A study of Gallus gallus with 13 samples.

Results

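The Q317K-only regions are the 15024 stretches of the chicken genome at which a binding peak was listed for the HOXD13 Q317K mutant and for none of the other factors studied. They were found by merging all peaks of the 4 deposited lists that overlapped by at least 1 bp, which gave 99237 regions, and by keeping those that held Q317K peaks and no others. Peaks of the Q317K list did not overlap each other, so by the rule every such region held exactly 1 Q317K peak and has that peak's borders. Together the regions took up 60.0% (59.4 to 60.6) of the 25036 Q317K peaks. The other 10012 Q317K peaks lay in 9871 regions shared with at least 1 other factor. The corresponding share of peaks alone was 68.5% in the HOXD13 wt list, 41.4% in the Q317R list and 83.2% in the PITX1 list. Ranges in parentheses after a share are exact (Clopper-Pearson) intervals at the 95% level, and those after "quartiles" are the 25th and 75th percentiles; the intervals account for counting error only. The members were chosen by the presence or absence of peaks in the 4 lists, which were made from the same measurements, so all values below describe the regions and none of them is tested.

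All cells were chicken limb bud mesenchyme of Hamburger-Hamilton stage 24, infected with an RCASBP(A) retrovirus and kept for 9 days as micromass, a dense droplet culture that forms cartilage. The chromatin groups carried FLAG-tagged mouse Hoxd13 as wild type (wt), Q317K or Q317R, or FLAG-tagged chicken PITX1, and each was precipitated with the FLAG M2 antibody. The RNA groups carried the same 4 viruses or the empty one. The series design states 2 biological replicates for each precipitation, but 1 peak list per factor was deposited, so no spread between cultures can be given. The proteins were produced from a virus in cells that keep their own HOXD13 and PITX1 genes. The chicken HOXD13 row stood at 36.8 RPKM in the Q317K library, 63.4 in HOXD13 wt and 53.7 in Q317R, against 13.1 in PITX1 and 16.6 in the empty vector library. Reads of the viral mouse Hoxd13 cannot be told apart from the cells' own in this row. PITX1 stood at 36.4 RPKM in the Q317K library and 64.5 in the empty vector library, against 10233 in the PITX1 library. The cartilage markers were present in the Q317K library at lower levels than in the empty vector library, with the collagen COL2A1 at 1983 against 15370 RPKM, the proteoglycan ACAN at 59.9 against 969 and the transcription factor SOX9 at 129 against 338. For these genes the other virus libraries were below the empty vector one too. COL2A1, ACAN and SOX9 stood at 4279, 281 and 260 RPKM in HOXD13 wt and 3437, 208 and 133 in PITX1. In Q317R they stood at 11296, 656 and 302. MATN1, HAPLN1 and COL9A1 were also detected, at 19.7, 63.9 and 126 RPKM in the Q317K library. COL9A1 was an exception in the Q317R library, where it stood at 805 RPKM, above the 608 of the empty vector library.

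HOXD13 is the HOX protein of the most distal limb and digits, and it binds DNA through a homeodomain, a fold of helices of which one lies in the major groove. The glutamine replaced in Q317K and Q317R sits in that recognition helix, where it contacts bases flanking the TAAT-type core that most homeodomains read. PITX1, a hindlimb regulator of the bicoid-related class, carries a lysine at the matching position, the residue that Q317K introduces, whereas Q317R introduces an arginine. A peak in these lists marks DNA that was enriched with the tagged protein; it does not show direct contact or an effect on a gene.

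The Q317K-only regions were narrow. Their median width was 564 bp (quartiles 458 to 765), from 266 bp for the narrowest to 2820 bp for the widest. Q317K peaks in shared regions had a median of 741 bp (quartiles 544 to 1029). Over 1000 bp lay 1612 of the Q317K-only regions, or 10.7% (10.2 to 11.2), against 26.8% (25.9 to 27.7) of the shared Q317K peaks. Regions held by HOXD13 wt alone had a median of 557 bp (quartiles 454 to 763), and those of Q317R alone had 583 bp. Regions of PITX1 alone were wider, with a median of 739 bp. The summit lay near the middle of the Q317K-only regions, at a median of 38.5 bp from the centre, against 69.5 bp for shared Q317K peaks. In each other list, too, shared peaks were wider and had summits farther from the centre. Their median widths were 696 bp for HOXD13 wt, 736 bp for Q317R and 853 bp for PITX1.

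Strength was lower when no other factor was listed at the site. The authors' fold enrichment had a median of 8.04 (quartiles 7.20 to 9.53) in Q317K-only regions and 8.66 (quartiles 7.42 to 10.8) in shared Q317K peaks. The −log10 p of the peak, also the authors' value, had medians of 54.5 and 62.8. A fold of at least 15 was reached by 321 Q317K-only regions, or 2.14% (1.91 to 2.38), and by 6.36% (5.89 to 6.86) of the shared peaks. The median fold differed with the partner. Q317K peaks in regions of Q317K and Q317R alone stood at 9.06. Those with HOXD13 wt alone stood at 8.22 and those with PITX1 alone at 8.02, the last close to the Q317K-only value. In −log10 p this last pair had the reverse order, with medians of 55.5 and 58.7. By that measure the peaks with HOXD13 wt alone were the closest to the Q317K-only value of 54.5. The peaks with PITX1 alone were also wider than the Q317K-only ones, with a median of 770.5 bp. Lower strength of peaks found alone was common to the 4 lists. Median folds of peaks alone and shared were 7.87 and 8.59 for HOXD13 wt, 7.21 and 7.85 for Q317R, and 9.57 and 10.7 for PITX1.

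The share of Q317K peaks that were found alone was lowest among the strongest peaks. Ranked by fold, 64.4% (62.5 to 66.3) of the weakest 10% of peaks were alone, 67.9% (66.0 to 69.7) in the third step of 10%, and 40.9% (39.0 to 42.8) of the strongest 10%. Among the 1000 peaks of largest fold 336 were alone, or 33.6% (30.7 to 36.6), and among the 100 of largest fold 21 were, or 21.0% (13.5 to 30.3). The partner that took up most of the difference was Q317R: 45.7% of the strongest 10% of Q317K peaks lay in a region with Q317R, against 14.4% of the weakest 10%. The corresponding shares were 21.1% against 9.11% for HOXD13 wt and 19.9% against 21.8% for PITX1, which had its lowest share, 12.8%, in the third step.

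Width moved with the same share, and more steeply. Of the narrowest 10% of Q317K peaks 80.1% (78.5 to 81.6) were alone, and of the widest 10%, which were at least 1181 bp, 33.9% (32.0 to 35.8). A wider peak has more room to touch another, and the part of width in the difference was not tested. Within the narrowest 25% of peaks the share alone was still 79.5% in the weakest 25% by fold and 65.4% in the strongest 25%. Within the widest 25% it was 46.0% and 33.1%. Strength and width were thus each related to being alone when the other was held within a range. From the narrowest to the widest 10% of peaks, the share alone fell in each other list as well. It went from 83.1 to 45.6% for HOXD13 wt, from 63.4 to 20.1% for Q317R and from 89.8 to 70.7% for PITX1.

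**Figure D1:**
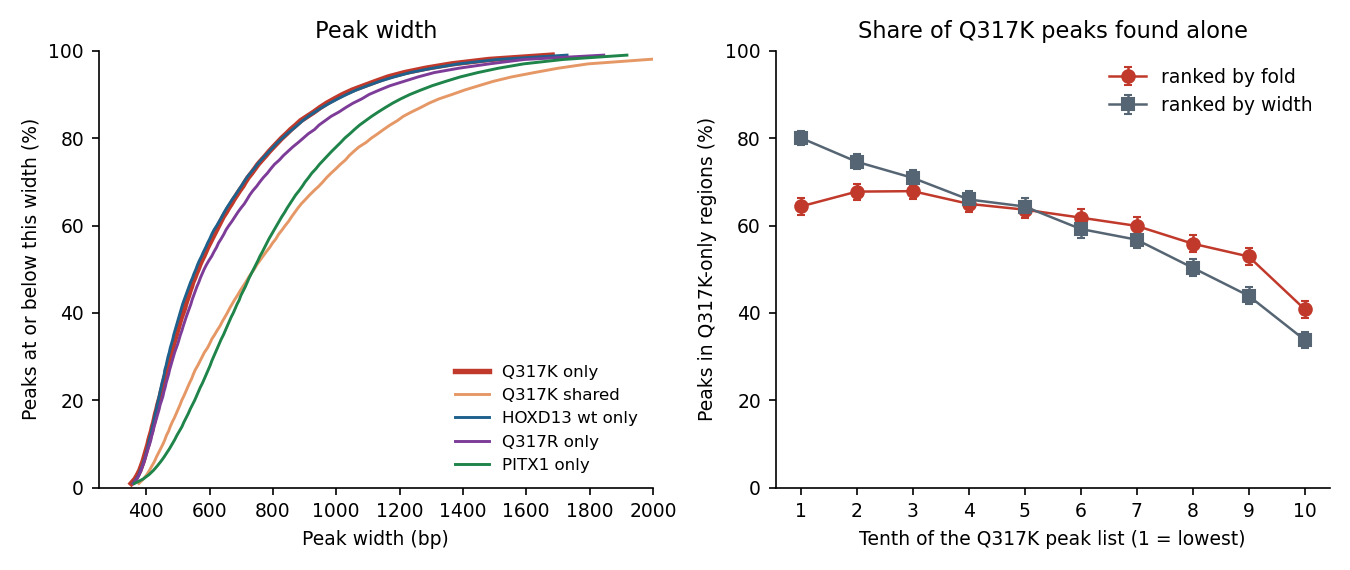
Left, cumulative distribution of peak width in bp for Q317K-only regions, shared Q317K peaks and the regions of each other factor alone. Right, percent of Q317K peaks in Q317K-only regions (y axis) for each step of 10% of the list from lowest to highest fold or width, with 95% exact intervals as bars; the share falls to 40.9% at the highest fold and 33.9% at the greatest width.

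The 8 Q317K-only regions of largest fold included some of the strongest peaks of the whole Q317K list. The strongest lay on chromosome 1 from 184586598 to 184587204, with a fold of 37.0, rank 3 of all Q317K peaks, and its nearest neighbour of another factor was a HOXD13 wt region 2.92 kb away. Next came chromosome 12 from 8066184 to 8067073, with a fold of 34.8 and a HOXD13 wt region 0.67 kb away. The third was chromosome 7 from 4413792 to 4414462, with a fold of 26.3, rank 21. After the first pair, the fold thus dropped by a clear step. The fourth region, chromosome 2 from 40342438 to 40342989, had a fold of 25.4 and lay 4.36 kb from a PITX1 region. The fifth, chromosome 3 from 76322600 to 76323495, had a fold of 25.3 and no region of another factor within 28.2 kb. It was the most isolated of the 8.

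The remaining regions of this group lay closer to other factors than the fifth region did. A region on chromosome 2 from 124156994 to 124158094 had a fold of 24.3 and a HOXD13 wt region 1.57 kb away. One on chromosome 3 from 94000169 to 94001029 had the same fold, with HOXD13 wt 5.90 kb away. Chromosome 6 from 19541840 to 19542669 had a fold of 24.1 and a PITX1 region only 0.193 kb away, the shortest such distance among the 8. The nearest other region was one of HOXD13 wt for 4 of the 8, and the distance to any other factor ranged from 0.193 to 28.2 kb. No source used here names the genome build of these positions, and no gene was assigned to any region.

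At the other end of the ranking the folds were 4.15 for chromosome 27 from 29865 to 30436, 4.75 for chromosome 15 from 3688433 to 3689022 and 4.81 for chromosome 4 from 53035703 to 53036182. The first of these is also the weakest peak by fold in the whole Q317K list, but its −log10 p of 48.1 was above the list's end at 39.4, so a low fold did not mean the lowest p rank. The widest Q317K-only region spanned 2820 bp on chromosome 11 from 5343544 to 5346363, with a fold of 13.0. The narrowest, of 266 bp, lay on chromosome 1 from 181878787 to 181879052 with a fold of 5.31. The 25% of regions with the lowest fold had a median width of 515 bp, and the 25% with the highest fold 623 bp.

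The rule of 1 bp has an edge, and few regions stood near it. Just inside it were 121 Q317K-only regions, 0.805% of the members, with another factor's region at most 50 bp away; their median fold was 8.54 and their median width 560 bp. Just outside it were 100 Q317K peaks that shared at most 50 bp with another factor's peak, with a median fold of 7.90 and a median width of 623 bp. Shared Q317K peaks as a whole were far from the edge, since the largest overlap covered 90.4% of the Q317K peak at the median. The number of members changed with the lists' thresholds and with the edge. With every list limited to peaks of −log10 p of at least 52.1, where the HOXD13 wt list ended, 9608 regions were Q317K-only, out of a Q317K list shortened to 15122 peaks. With all lists limited to equal length there were 13808, and with peaks up to 500 bp apart merged 13276. A Q317K-only region can also hold binding of another factor below that factor's threshold.

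Q317K-only regions were densest on the large chromosomes. Chromosomes 1 to 5 held 10243 of them, or 68.2% (67.4 to 68.9), at 16.4 per Mb, counting each chromosome up to the last peak of any list. Chromosomes 6 to 9 held 1860 at 14.1 per Mb, the small chromosomes 10 to 28 held 2109 at 10.6 per Mb and the sex chromosome Z held 812 at 10.9 per Mb. The share on the small chromosomes was 14.0% (13.5 to 14.6), although these make up 19.3% of the length, a ratio of 0.729. Chicken small chromosomes are known to be rich in genes and in G and C. Every numbered chromosome in the lists held members, from 3186 on chromosome 1 to 3 on chromosome 16, and chromosome W held none.

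Among the numbered chromosomes the other HOXD13 forms showed the same order and PITX1 the opposite one. Regions of PITX1 alone stood at 30.3 per Mb on chromosomes 1 to 5, 39.5 on 6 to 9 and 42.2 on 10 to 28, but at 20.5, their lowest, on Z. On chromosomes 10 to 28 lay 11.8% (11.4 to 12.2) of the regions of HOXD13 wt alone and 12.4% (11.8 to 13.2) of those of Q317R alone, with ratios to length of 0.611 and 0.646. Of the regions of PITX1 alone 24.6% (24.2 to 25.1) lay there, with a ratio of 1.28. The Q317K-only share of 14.0% therefore stood between those of HOXD13 wt and PITX1 alone and nearer to HOXD13 wt. Shared Q317K regions were close to it, at 13.6% (12.9 to 14.3) with a ratio of 0.706, so this position was not particular to the members. Among Q317K-only regions the share was 18.6% in the 25% with the lowest fold. It was 12.8%, 12.2% and 12.5% in the stronger groups of 25%. The lists also ended at different −log10 p, at 39.4 for Q317K and 52.1 for HOXD13 wt, and the part of this was not tested. Across the 27 chromosomes with at least 20 Q317K-only regions, the density of Q317K-only regions and chromosome length had a Spearman rho of 0.87; the corresponding rho was 0.86 for HOXD13 wt alone, 0.89 for Q317R alone and −0.48 for PITX1 alone. The same chromosomes enter all these values, which are given as descriptions.

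**Figure D2:**
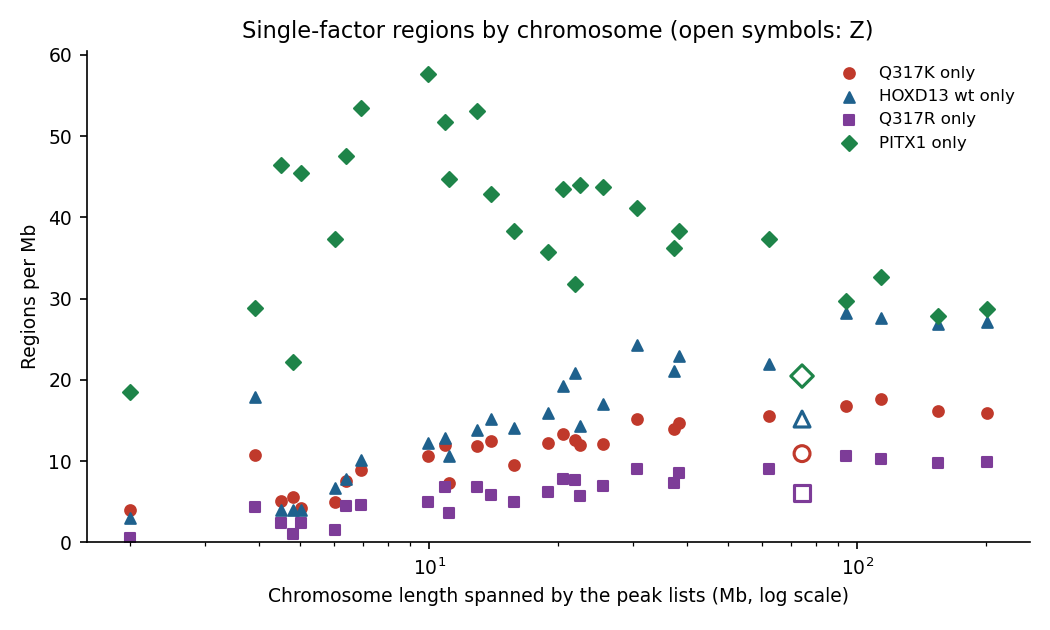
Regions per Mb (y axis) against chromosome length in Mb on a log scale (x axis) for the regions of each factor alone, 1 point per chromosome, with Z as open symbols and chromosomes 16 and W left out. Q317K-only points rise to 17.6 per Mb on chromosome 3, while PITX1-only points are highest on chromosome 19, at 57.6 per Mb.

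Single chromosomes kept to this order with some spread. The density of Q317K-only regions was highest on chromosome 3, at 17.6 per Mb, and lay between 15.6 and 17.6 per Mb on all of chromosomes 1 to 5. Among the small chromosomes it was highest on chromosome 12, at 13.4 per Mb, and on chromosomes 23, 25, 26, 27 and 28 it was between 4.01 and 5.60 per Mb. The last of these chromosomes are among the smallest, and each held 8 to 30 members. The share of all Q317K regions that were Q317K-only had a Spearman rho of −0.17 with chromosome length over the same 27 chromosomes. It was 60.3% (59.0 to 61.6) on chromosome 1 and 58.7% (54.1 to 63.2) on chromosome 12. It was lower on chromosome 8, at 55.9% (52.5 to 59.3), and lowest of the 27 on chromosome 23, with an interval of 36.8 to 63.2%, and higher on chromosome 13, at 69.4% (64.1 to 74.3), and on chromosome 27, at 77.1% (59.9 to 89.6).

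Chromosome Z was another with a high share. On Z 70.4% (67.7 to 73.0) of the Q317K regions were Q317K-only, against 60.3% over all chromosomes and 69.4% on chromosome 13. Shared Q317K regions were at 4.59 per Mb on Z and 10.9 per Mb on chromosomes 1 to 5, and Q317K-only regions at 10.9 and 16.4 per Mb. The regions of the other factors were also sparse on Z, with HOXD13 wt at 19.5 against 38.9 per Mb, Q317R at 11.9 against 24.2 and PITX1 at 23.2 against 37.1, and their part in the higher share was not tested. Median fold and width of the Q317K-only regions on Z were 8.18 and 565.5 bp, close to 8.04 and 564 bp over all chromosomes.

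Along the chromosomes, most neighbouring Q317K-only regions were more than 10 kb apart. The median gap between neighbours was 39.2 kb (quartiles 15.2 to 84.8), with a mean spacing of 68.6 kb. Of 14995 gaps 2651, or 17.7% (17.1 to 18.3), were at most 10 kb, and 321, or 2.14% (1.92 to 2.39), were at most 1 kb. The share at most 10 kb was 28.6% for regions of HOXD13 wt alone, 11.8% for Q317R alone and 44.7% for PITX1 alone, an order that follows the number of regions in each set. To allow for number, each gap was divided by the mean spacing of the set on its chromosome. On that scale 12.4% (11.8 to 12.9) of the Q317K-only gaps were at most 0.1 of the mean spacing, against 13.1% (12.4 to 13.9) for Q317R alone, 13.9% (13.4 to 14.3) for HOXD13 wt alone and 18.5% (18.1 to 18.9) for PITX1 alone. The Q317K-only value was the lowest of these 4 and closest to that of Q317R alone. With 1 list per factor, no spread between cultures can be set beside these differences.

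**Figure D3:**
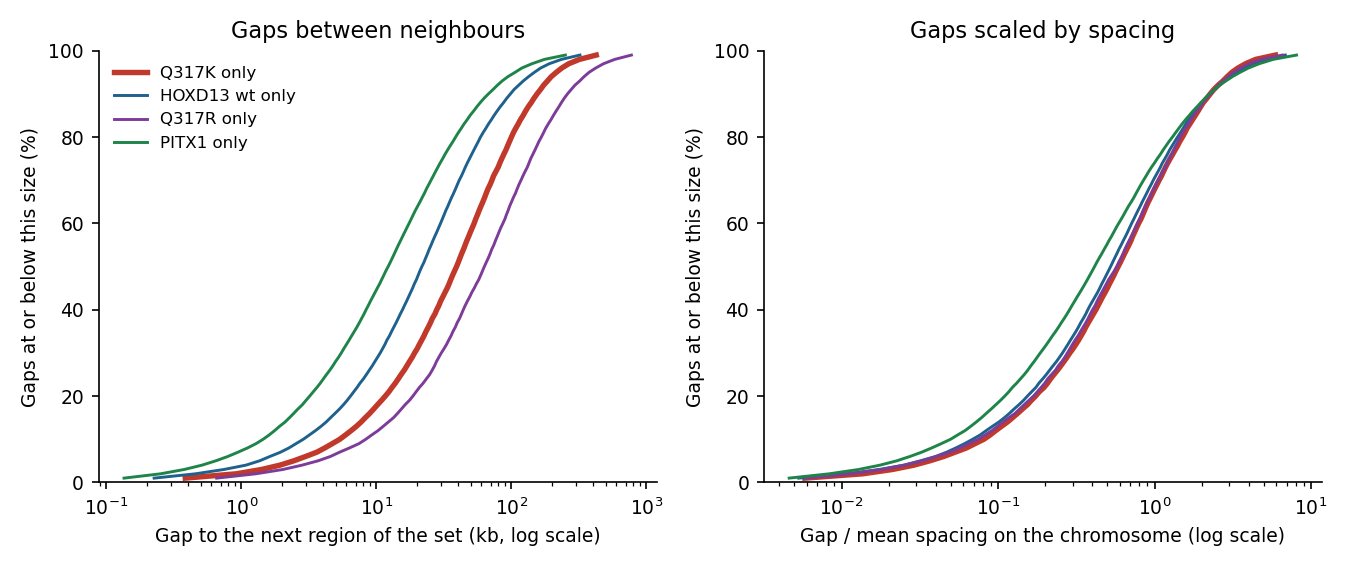
Cumulative percent of gaps (y axis) up to a given size between neighbouring regions of each factor alone, in kb on the left and divided by the mean spacing on the chromosome on the right, both on log scales. The curves for the 3 HOXD13 forms nearly coincide once scaled, with medians of 0.52 to 0.59, and the PITX1 curve lies to their left with a median of 0.41.

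Linking neighbours at most 10 kb apart left 10213 Q317K-only regions, or 68.0% (67.2 to 68.7), without a neighbour of their own kind. The others formed 2160 clusters, of which 1762 were pairs, 328 held 3 regions, 51 held 4, 15 held 5 and 4 held 6. The 398 clusters of 3 or more contained 1287 regions, or 8.57% (8.12 to 9.03) of the members, and had a median span of 11.9 kb. They lay more often on chromosomes 1 to 5, with 75.2% of their regions there against 67.1% of the unlinked ones, where the density of members is higher. Fold hardly differed with cluster size, with medians of 8.04 for unlinked regions, 8.04 for pairs and 8.08 for clusters of 3 or more. Median width was 555, 581.5 and 593 bp in the same order. With neighbours linked at up to 25 kb instead, 40.3% (39.6 to 41.1) of the members were unlinked and 59.7% (58.9 to 60.4) lay in clusters.

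A HOXD13 wt region lay within 137, or 34.4%, of the 398 clusters of 3 or more. A Q317R region lay within 111, or 27.9%, and a PITX1 region within 110, or 27.6%. Of the 398 clusters 166, or 41.7%, held none. The median span of these clusters was 11.9 kb. Regions of HOXD13 wt, Q317R and PITX1 had mean spacings of 30.2, 48.4 and 25.3 kb over all chromosomes. The number of clusters that this density alone would fill was not computed, so the counts are not read as a trait of the clusters. The tightest of the 4 clusters of 6 lay on chromosome 2 from 113381544 to 113396200, with folds from 7.10 to 14.7 within 14.7 kb and 1 HOXD13 wt region between them. The next, on chromosome 8 from 17660418 to 17685895, had folds from 7.20 to 10.6 and also 1 HOXD13 wt region. The third, on chromosome 3 from 72293957 to 72323122, had folds from 5.76 to 8.71, and it held 2 HOXD13 wt regions and 1 Q317R region. None of these 3 clusters held a PITX1 region. The fourth, on chromosome 4 from 64363418 to 64400743, had folds from 7.13 to 9.95, and it held 4 HOXD13 wt regions and 1 PITX1 region.

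On the scale of 1 Mb, Q317K-only regions were denser where regions of the other HOXD13 forms were dense. Over 1013 full bins of 1 Mb the mean was 14.7 Q317K-only regions per bin, the highest 35, and 10 bins had none. In the 10% of bins poorest in HOXD13 wt-only regions the mean was 5.36 (quartiles 2 to 8), and in the richest 10% it was 21.0 (quartiles 17 to 25). Ranked by Q317R-only regions, the corresponding means were 6.87 and 21.2. Ranked by PITX1-only regions they were 15.5 and 13.0, so the density of Q317K-only regions was almost level across a range from 4.38 to 68.9 PITX1-only regions per bin. The Spearman rho between bins was 0.70 with HOXD13 wt alone, 0.65 with Q317R alone and −0.15 with PITX1 alone. Bins share their chromosome, base composition and mappability, whose part in these values was not tested, so no p is given.

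**Figure D4:**
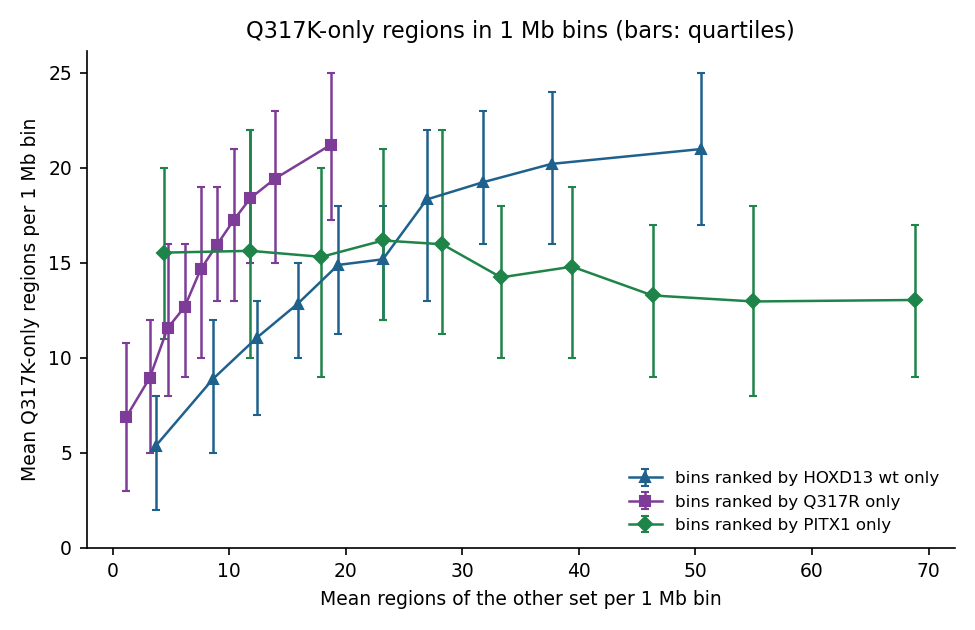
Mean number of Q317K-only regions per 1 Mb bin (y axis, bars from the 25th to the 75th percentile over bins) in 10 groups of bins ranked by the number of regions of HOXD13 wt, Q317R or PITX1 alone (x axis, mean of the group). The means rise to 21.0 and 21.2 with HOXD13 wt and Q317R and stay between 13.0 and 16.2 with PITX1.

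Within classes of chromosomes the relation with the HOXD13 forms was weakest on Z. With HOXD13 wt alone rho was 0.62 over 623 bins of chromosomes 1 to 5, 0.66 over 130 bins of chromosomes 6 to 9, 0.78 over 186 bins of chromosomes 10 to 28 and 0.22 over 74 bins of Z. With Q317R alone it was 0.55, 0.64, 0.65 and 0.33 in the same classes. With PITX1 alone it was −0.20, −0.06, 0.09 and 0.21, and its sign changed with the class. On Z the values with HOXD13 wt and PITX1 were thus nearly equal. The bin richest in Q317K-only regions, on chromosome 4 from 80000001 to 81000000, held 35 of them beside 39 of HOXD13 wt alone, 9 of Q317R alone and 22 of PITX1 alone. The bin after it on chromosome 4, from 81000001 to 82000000, held 34. All of the 8 richest bins lay on chromosomes 1 to 5.

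Most Q317K-only regions had a region of another factor within a few kb. The distance to the nearest region of any other factor had a median of 3.44 kb (quartiles 1.32 to 7.52), and 16.8% (16.2 to 17.4) of the members had none within 10 kb. Only 48, or 0.319%, had none within 50 kb. The median to any other factor was 3.025 kb from regions of Q317R alone, 4.35 kb from HOXD13 wt alone and 6.20 kb from PITX1 alone. Of these sets, in the same order, 13.8%, 23.3% and 35.8% had none within 10 kb. The number of other factors' regions differs between the sets, and its part was not tested. For Q317K-only regions, the nearest region of the 3 other factors held HOXD13 wt only in 35.2% of cases, PITX1 only in 34.9% and Q317R only in 16.3%. In 13.6% it held several of them, or several lay at the same distance. Any of these nearest regions can also hold Q317K. Regions that hold HOXD13 wt, Q317R and PITX1 made up 35.5%, 22.2% and 42.3% of the other factors' regions when each factor is counted separately. Regions of several factors enter these shares more than once, so the shares are not a direct baseline. All 3 other factors lay within 10 kb of 1922 members, or 12.8% (12.3 to 13.3).

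Measured factor by factor, HOXD13 wt was nearest. The median distance was 8.47 kb (quartiles 3.26 to 19.3) to a HOXD13 wt region, 11.7 kb (quartiles 3.87 to 33.5) to a PITX1 region and 13.8 kb (quartiles 5.15 to 31.2) to a Q317R region. Within 1 kb lay a HOXD13 wt region for 9.07% (8.62 to 9.54) of the members, a PITX1 region for 8.49% (8.05 to 8.94) and a Q317R region for 6.05% (5.67 to 6.44). Within 100 kb the order of the last pair was the reverse, with a Q317R region for 95.9% of the members, a PITX1 region for 91.9% and a HOXD13 wt region for 98.4%. This order of medians depended on the lengths of the lists: with each list limited to its 21396 strongest peaks the medians were 13.8 kb to HOXD13 wt, 13.5 kb to Q317R and 22.1 kb to PITX1. With a common −log10 p of at least 52.1 the median to Q317R was 27.7 kb.

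**Figure D5:**
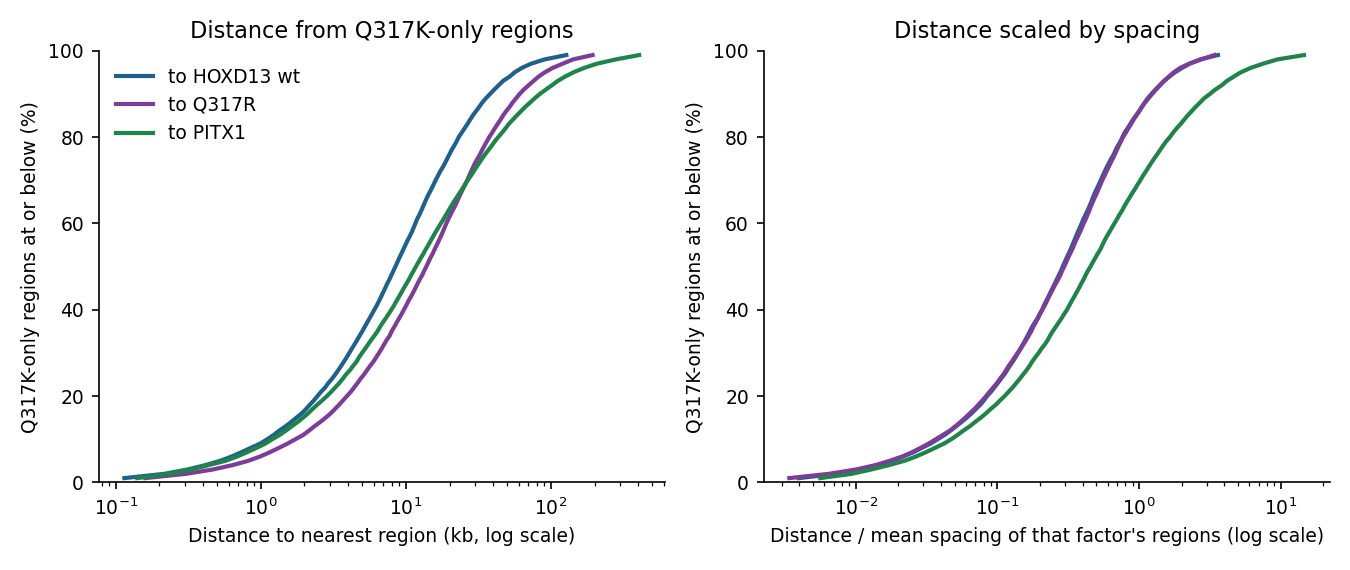
Cumulative percent of Q317K-only regions (y axis) with the nearest region of HOXD13 wt, Q317R or PITX1 within a given distance, in kb on the left and divided by the mean spacing of that factor's regions on the chromosome on the right, both on log scales. On the scaled axis the HOXD13 wt and Q317R curves lie on each other, with medians of 0.29 and 0.30, and the PITX1 curve lies to their right with a median of 0.45.

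Dividing each distance by the mean spacing of the factor's regions on the chromosome removed most of the difference between the HOXD13 forms. The scaled median was 0.29 (quartiles 0.11 to 0.64) to HOXD13 wt, 0.30 (quartiles 0.11 to 0.65) to Q317R and 0.45 (quartiles 0.15 to 1.28) to PITX1. At most 0.1 of the mean spacing away was a HOXD13 wt region for 22.9% (22.2 to 23.6) of the members, a Q317R region for 23.2% (22.5 to 23.9) and a PITX1 region for 18.3% (17.7 to 18.9). The regions of PITX1 alone also had the largest share of short scaled gaps, as given above, and the part of this uneven spacing in the longer scaled distance was not tested.

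With PITX1 as a fixed target and the lists as deposited, the median distance was shortest from Q317K-only regions. The margin over those of Q317R alone was small. The median distance to the nearest PITX1 region was 11.7 kb from Q317K-only regions, 13.0 kb (quartiles 4.18 to 36.6) from those of Q317R alone and 16.2 kb (quartiles 5.14 to 47.5) from those of HOXD13 wt alone. The shares within 10 kb were 45.8% (45.0 to 46.6), 44.0% (43.0 to 45.0) and 38.4% (37.8 to 39.0). The order was the same within each class of chromosomes. From Q317K, Q317R and HOXD13 wt alone in turn, the medians were 13.3, 14.4 and 18.9 kb on chromosomes 1 to 5, 8.79, 9.75 and 11.2 kb on chromosomes 6 to 9, 7.87, 8.53 and 9.66 kb on chromosomes 10 to 28, and 16.4, 20.7 and 24.2 kb on Z. The Q317R list ended at a −log10 p of 36.7, the Q317K list at 39.4 and the HOXD13 wt list at 52.1. The order of the sets was not recomputed at a common threshold, so the part of the thresholds was not tested. Among Q317K-only regions, the 25% of lowest fold stood at 9.11 kb, and the stronger groups of 25% at 13.1, 13.2 and 12.5 kb. The latter were near the 13.0 kb from Q317R alone, a set that was not split by fold. The regions of all these sets are by rule free of PITX1 peaks, so the comparison concerns neighbourhoods and not shared sites. Each set rests on 1 peak list.

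The weakest 25% of Q317K-only regions lay nearer to PITX1 and farther from the HOXD13 forms than the rest. In the 25% of members with the lowest fold, which ran from 4.15 to 7.20, the median distance was 9.11 kb to PITX1, 10.2 kb to HOXD13 wt and 16.5 kb to Q317R. In the 25% with the highest fold it was 12.5, 7.95 and 13.1 kb. The groups of 25% between them, the weaker first, had 13.1 and 13.2 kb to PITX1, 8.41 and 7.73 kb to HOXD13 wt and 13.4 and 12.8 kb to Q317R, so the difference lay between the weakest 25% and the others, with no steady order among those. The small chromosomes held 18.6% of the weakest 25% and 12.5% of the strongest 25%. On chromosomes 1 to 5 the median distance to PITX1 was still 10.3 kb in the weakest 25% against 14.2 kb in the strongest 25%. On chromosomes 10 to 28 it rose at each step, from 6.73 through 7.97 and 8.52 to 9.52 kb. On Z the weakest 25% were not the farthest from Q317R, at 28.5 kb beside 26.1, 28.6 and 28.8 kb in the stronger groups. The distance to any other factor went with nearly equal folds, with a median of 8.06 for members within 1 kb of another factor and 8.04 for those 10 to 50 kb away.

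In kb, shared Q317K regions lay farther from the members than other Q317K-only regions, which are more numerous. The nearest other Q317K region was itself Q317K-only for 62.2% (61.4 to 63.0) of the members, beside a share of 60.3% Q317K-only among all Q317K regions. The median distance was 18.8 kb to the next Q317K-only region and 31.6 kb to the nearest shared one. The mean spacings of these sets were 68.6 and 104 kb, and the part of number in the difference was not tested. The most isolated member lay on chromosome 27 from 767304 to 767571, 176 kb from the nearest region of another factor, with a fold of 8.50. Next were a pair of neighbours on Z, from 13631647 to 13632805 with a fold of 10.4 and from 13625614 to 13626091 with a fold of 7.76, which lay 102 and 95.8 kb from any other factor and 5.56 kb from each other. Of these 3 folds, 8.50 and 7.76 lay within the quartiles of all members and 10.4 above them.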

How the data were processed

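The peak caller was MACS2, according to the submitters' processing notes. Per the layout of the deposited files, each peak has a position, a score of 10 times its −log10 p, a fold enrichment ratio (its reference is not stated), a −log10 p-value and a summit offset. The authors deposited 1 list per factor, and no source used here gives the genome build, aligner, thresholds, read depth or handling of replicates and inputs. The authors deposited RNA values as RPKM per Ensembl transcript, and each named gene is given by its row with the highest sum; with 1 library a group, no folds or tests were computed.

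Groups were taken from the sample titles and, for PITX1, the virus label. Distances are bases between region edges, positions are counted from 1, and chromosome length is the largest peak end in any list. Regions named are the 8 with the largest and 3 with the smallest fold, the widest and narrowest, the 3 farthest from other factors and the 3 largest clusters, where those of equal size were ranked by span. The members and lists were chosen with earlier results of these data known. Merging and distance steps were tested on simulated intervals against a direct search. Input samples were not analysed here. The tools were Python 3.11.15 with pandas 2.3.3, scipy 1.17.1 and numpy 2.4.6.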

Additional observations from a re-analysis of the deposited data

How the results depend on the processing

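No paired analysis was possible because each factor had 1 peak list and the labels give no replicate numbers. Leaving out chromosome W changed none of the 9 values and could not, since W held no Q317K region. Requiring an overlap of 100 bp moved 1 value beyond its interval, the share of Q317K peaks that were alone, to 60.7%. Merging peaks up to 500 bp apart gave a share alone of 53.7%, a share of gaps within 10 kb of 14.9% and median distances of 9.02 kb to HOXD13 wt, 14.6 kb to Q317R and 12.6 kb to PITX1. Limiting all lists to a −log10 p of at least 52.1 gave 9608 regions, a share alone of 63.5%, a median width of 604 bp, a median fold of 9.34, 69.0% on chromosomes 1 to 5, 11.9% of gaps within 10 kb and distances of 27.7 kb to Q317R and 14.7 kb to PITX1. This setting kept 15122 of the Q317K peaks and 10604 of the Q317R peaks. Limiting each list to 21396 peaks gave a share alone of 64.5%, a median width of 585.5 bp, a median fold of 8.43, 16.4% of gaps within 10 kb and distances of 13.8 kb to HOXD13 wt and 22.1 kb to PITX1. From summit to summit the distances were 9.18, 14.6 and 12.5 kb to HOXD13 wt, Q317R and PITX1. Gaps within 5 kb made up 9.42% and gaps within 25 kb 36.9%. In all, 25 of 50 values stayed within the interval of the main value or, for the count, within 1.5 times of it. This tally includes the 9 values without chromosome W, which were bound to stay. It also includes the gaps within 5 and 25 kb, which are a different share. It is therefore no measure of how stable the results are. The lists hold no read counts, so sites below a list's threshold cannot be told from unbound ones.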

Other observations

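The longest stretch without a Q317K-only region lay on chromosome 7 from 6903885 to 8915777, over 2.01 Mb. It held 5 shared Q317K regions, 18 HOXD13 wt regions, 11 Q317R regions and 18 PITX1 regions. On chromosomes 6 to 9 as a whole these stood, in the same order, at 10.2, 32.2, 20.4 and 46.9 per Mb. The stretch was thus poor in regions of every factor and not only in Q317K-only regions. The next, on chromosome 10 from 1762716 to 3640866, spanned 1.88 Mb and held 9 PITX1 regions and none of the 3 HOXD13 forms. These stretches were picked with their values known, and assembly gaps or unmappable sequence within them were not examined.

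Toward the chromosome ends, the outer 10% at each side of chromosomes 1 to 5 held 16.8% (16.0 to 17.5) of the Q317K-only regions there, 16.8% of those of HOXD13 wt alone, 15.3% of those of Q317R alone and 20.2% (19.7 to 20.8) of those of PITX1 alone. On chromosomes 10 to 28 the shares were 14.9%, 14.9%, 16.1% and 21.6%. On chromosomes 6 to 9 PITX1 had the lowest share instead, 16.9%, against 18.4% for Q317K and 20.3% for Q317R, and on Z the shares were 15.9%, 17.3%, 16.8% and 17.9%.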
